A study of Mus musculus with 12 samples.

Results

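The 9 genes described here, Cs, Idh1, Idh2, Idh3a, Idh3b, Ogdh, Dlst, Fh1 and Mdh2, encode enzymes and enzyme subunits of the citrate cycle and its isocitrate dehydrogenase isoenzymes. They were taken by symbol from the 16352 genes of a table of RNA-seq read counts, where each has 1 row, and all 9 passed the filter on low counts. RNA was measured in 12 libraries of primary CD8 T cells; the cells came from spleens of C57BL/6 mice. These form 4 groups of 3: wild type (WT) at 0 h, Trmt61A conditional knockout (Trmt61A-cKO, here cKO) at 0 h, and each genotype at 48 h. Trmt61a encodes the catalytic subunit of the methyltransferase that makes 1-methyladenosine in tRNA. The labels give neither the Cre line or promoter behind the knockout, nor the age of the mice, nor any treatment of the cells over the 48 h. They do not say whether a replicate number marks the same mouse at both times. The p-values below treat the 12 libraries as independent, and how much of the variation among libraries is technical is not known.

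Total counts ran from 34341847 to 40270659 per library. Levels are given as CPM, counts scaled to a common library size, with TMM factors that adjust for differences in composition. Trmt61a stood at 26.3 to 29.8 CPM in WT at 0 h and at 34.8 to 42.0 CPM in WT at 48 h. Replicates 2 and 3 of cKO held 0.807 to 1.88 CPM, but the library labelled cKO replicate 1 held 28.1 CPM at 0 h and 42.5 CPM at 48 h, which are 101 percent and 111 percent of the WT means. The readout goes against that label at both times, and the results of the 9 genes between genotypes are therefore given with and without both of those libraries. WT replicate 3 had 0 counts of the Y-linked genes Uty, Kdm5d and Eif2s3y at both times, unlike every other library. The 5 markers of CD8 T cells summed to 3786 to 4289 CPM over the libraries at 0 h and to 1449.8 to 1563 CPM at 48 h.

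The citrate cycle oxidises acetyl groups in the mitochondrial matrix and passes the electrons to the respiratory chain. Citrate synthase (Cs) starts it by joining acetyl-CoA to oxaloacetate. Isocitrate is oxidised by the NAD-dependent complex built from the catalytic subunit Idh3a and the further subunits Idh3b and Idh3g, or by the NADP-dependent enzymes Idh2 of mitochondria and Idh1 of cytosol and peroxisomes. Ogdh and Dlst are the E1 and E2 components of the 2-oxoglutarate dehydrogenase complex, fumarase (Fh1) hydrates fumarate, and Mdh2 regenerates oxaloacetate. Activated T cells are known to draw citrate from the cycle for lipid synthesis and to refill it from glutamine.

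The sequences just upstream of the transcription start are shown for 3 of the genes that rose most from 0 h to 48 h (Cs, Fh1 and Mdh2) and for Idh2, which fell in cKO. Each is the 250 bases before a RefSeq start on the build GRCm38.p6, read 5' to 3' in the direction of the gene, with every CCAAT or its reverse complement ATTGG, the NF-Y motif, in capitals. The windows are chr10:128337477-128337726 on the plus strand for Cs, chr1:175625636-175625885 on the minus strand for Fh1, chr5:135778399-135778648 on the plus strand for Mdh2 and chr7:80115351-80115600 on the minus strand for Idh2.
Cs: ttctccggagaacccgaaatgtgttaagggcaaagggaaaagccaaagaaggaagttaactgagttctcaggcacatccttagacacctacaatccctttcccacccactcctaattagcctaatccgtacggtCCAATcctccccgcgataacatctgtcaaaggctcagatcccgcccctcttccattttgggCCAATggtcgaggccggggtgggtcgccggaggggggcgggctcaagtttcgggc
Fh1: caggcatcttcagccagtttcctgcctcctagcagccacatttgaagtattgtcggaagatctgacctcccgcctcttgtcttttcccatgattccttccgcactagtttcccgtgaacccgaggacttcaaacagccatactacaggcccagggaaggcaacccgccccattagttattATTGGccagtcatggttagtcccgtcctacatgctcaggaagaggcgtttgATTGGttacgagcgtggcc
Mdh2: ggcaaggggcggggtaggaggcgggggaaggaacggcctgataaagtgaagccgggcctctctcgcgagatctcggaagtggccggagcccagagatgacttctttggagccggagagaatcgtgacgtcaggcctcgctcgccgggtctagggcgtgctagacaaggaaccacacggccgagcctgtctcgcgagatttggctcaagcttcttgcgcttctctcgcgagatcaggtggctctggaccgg
Idh2: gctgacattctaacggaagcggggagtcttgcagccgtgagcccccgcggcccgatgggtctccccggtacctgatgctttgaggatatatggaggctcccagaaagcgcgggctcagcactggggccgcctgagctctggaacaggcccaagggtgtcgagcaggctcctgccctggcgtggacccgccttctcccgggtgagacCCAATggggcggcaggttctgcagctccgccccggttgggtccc
The table of promoters held 8 of the 9 genes (not Idh3a). On either strand, NF-Y letters occurred upstream of 6 of the 8 (Cs, Fh1, Idh1, Idh2, Idh3b and Ogdh), against 37.5 percent of the 27025 genes in the table. The E-box CACGTG occurred upstream of 1 of the 8, Ogdh, against 6.86 percent of genes. The ETS core CCGGAA, the NRF1 motif and the ERR half-site AAGGTCA occurred upstream of 0 of the 8, against 13.6, 5.64 and 4.7 percent of genes. Some genes have several start sites in the table, and a gene was counted if any of its windows held the letters. The promoters of Cs and Fh1, with NF-Y letters, and that of Mdh2, without them, belong to genes that rose in both genotypes.

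Per kilobase of exon (union of exons in GENCODE M21, which is on GRCm38), the 9 genes spanned a wide range of levels. The union counts every annotated exon, used by these cells or not, from 2588 bases for Idh2 to 9559 for Dlst. The order between genes therefore depends on the annotation. In WT at 0 h, Mdh2 was highest at 54.2 ± 2.74 CPM per kb (SD, n = 3), followed by Ogdh at 47.7 ± 1.49, Idh3b at 39.8 ± 1.86, Cs at 36.7 ± 1.55 and Idh2 at 26.1 ± 3.11 CPM per kb. Dlst at 14.8 ± 0.132, Idh3a at 12.9 ± 0.654 and Fh1 at 12.4 ± 0.628 CPM per kb formed a lower group, and Idh1 was lowest at 1.38 ± 0.528 CPM per kb. Idh3a and Fh1 were the only neighbours in this order whose WT libraries at 0 h overlapped. At 48 h in WT, Mdh2 stood at 97.2 ± 5.26 and Cs at 67.3 ± 0.821 CPM per kb, ahead of Idh3b at 40.5 ± 1.32 and Ogdh at 39.8 ± 2.14 CPM per kb, which overlapped each other. Idh3a at 31.1 ± 1.69 and Fh1 at 30.6 ± 1.6 CPM per kb then lay above Idh2 and Dlst, at 22.0 ± 1.88 and 20.6 ± 1.05 CPM per kb, and each of these pairs overlapped too. Idh1 stayed lowest at 2.46 ± 0.328 CPM per kb. Idh1 rested on 73 to 293 counts per library, and the other 8 genes on 1216 to 15957 counts, so that Idh1 carries the largest relative error of the 9.

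**Figure D1:**
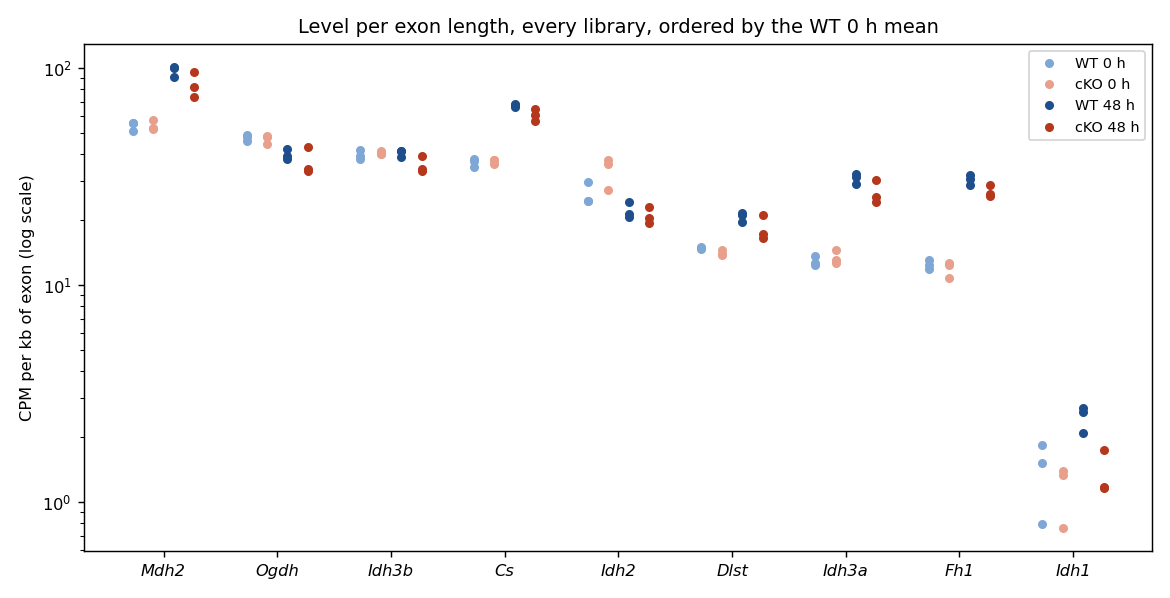
Level per kilobase of exon (CPM per kb, log axis) of the 9 genes in each of the 12 libraries, 1 point per library, ordered by the WT 0 h mean. Idh1 lies more than an order of magnitude below Mdh2 in every group, and Cs moves from the fourth place at 0 h to the second at 48 h.

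From 0 h to 48 h in WT, 6 of the 9 genes rose and 1 fell (edgeR quasi-likelihood test, Benjamini-Hochberg adjusted p under 0.05 over the 12404 genes tested). Much of the transcriptome moved over the same time: 75.4 percent of all tested genes were called, 36.9 percent of them as higher and 38.4 percent as lower. The median log2 fold change was 0.84 for the 9 genes and -0.02 for all tested genes. Fh1, Idh3a, Cs, Mdh2, Idh1 and Dlst rose, and Ogdh fell. In these bulk libraries a change in the number of cells of a type and a change in RNA per cell cannot be told apart.

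Cs stood at 219, 202 and 215 CPM in the WT libraries at 0 h and at 390.3, 383 and 392 CPM at 48 h. The groups were far apart, with little spread within either, and the rise was 1.83-fold (log2 fold change 0.87 ± 0.064 SE, adjusted p = 1.08e-08 in edgeR). In cKO, Cs went from 218, 208 and 216 CPM to 375, 328 and 351 CPM. These groups did not overlap either, and the rise was 1.64-fold (log2 0.71 ± 0.064 SE, adjusted p = 1.2e-07 in edgeR). The library labelled cKO replicate 1 was the highest of the 3 at 48 h.

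The subunits of the NAD-dependent isocitrate dehydrogenase moved unequally. Idh3a, the catalytic subunit, stood at 64.1, 62.9 and 69.1 CPM in WT at 0 h and at 159.7, 148 and 165 CPM at 48 h, a rise of 2.41-fold (log2 1.27 ± 0.093 SE, adjusted p = 1.05e-08 in edgeR). In cKO it went from 65.9, 63.7 and 73.4 CPM to 154, 122 and 129 CPM (log2 1.00 ± 0.093 SE, adjusted p = 1.76e-07 in edgeR). Every library at 48 h thus held more Idh3a than any library at 0 h.
Idh3b, a non-catalytic partner subunit, was measured at 143, 135 and 130.5 CPM in WT at 0 h and at 141, 133 and 141 CPM at 48 h. These groups overlapped, and the log2 fold change of 0.03 ± 0.073 SE (adjusted p = 0.762 in edgeR) changed sign to -0.079 under upper-quartile scaling, which shifts the median of all genes by -0.10 in this comparison. In cKO, Idh3b went from 137, 137 and 142 CPM to 134, 114 and 118 CPM and fell by 0.18 on the log2 scale (SE 0.073, adjusted p = 0.0344 in edgeR). That call was lost in 13 of the alternative settings, among them DESeq2. Idh3b shares 5 bases of exon with Nop56 on the opposite strand, and whether the counting used strand is not given in the sources used here.

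The NADP-dependent isoenzymes differed from each other. Mitochondrial Idh2 was measured at 63.0, 76.9 and 62.8 CPM in WT at 0 h and at 62.5, 53.3 and 55.2 CPM at 48 h, so all WT libraries were lower at 48 h, the closest by a narrow margin (log2 -0.25 ± 0.12 SE, adjusted p = 0.0756 in edgeR). In cKO, Idh2 went from 71.0, 97.0 and 93.4 CPM to 59.3, 52.4 and 50.0 CPM. It fell to 0.619 of its level at 0 h, and the groups did not overlap (log2 -0.69 ± 0.12 SE, adjusted p = 0.000113 in edgeR).
Idh1, of cytosol and peroxisomes, was measured at 4.18, 2.2 and 5.06 CPM in WT at 0 h and at 7.48, 5.79 and 7.2 CPM at 48 h, a rise of 1.79-fold with no overlap (log2 0.84 ± 0.31 SE, adjusted p = 0.0243 in edgeR). The rise was not called without WT replicate 2 at 0 h (log2 0.56, adjusted p = 0.102) or without WT replicate 1 or 3 at 48 h (adjusted p = 0.0702 and 0.0615 in edgeR). In cKO, Idh1 was at 3.83, 2.11 and 3.7 CPM at 0 h and at 4.83, 3.21 and 3.25 CPM at 48 h. These overlapped (log2 0.23 ± 0.32 SE, adjusted p = 0.525 in edgeR).

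Ogdh, the E1 component that binds 2-oxoglutarate and decarboxylates it, fell in both genotypes. It went from 251, 263 and 267 CPM to 230.0, 207 and 214 CPM in WT (log2 -0.26 ± 0.089 SE, adjusted p = 0.0152 in edgeR). In cKO it went from 264, 244 and 263 CPM to 235, 182 and 187 CPM (log2 -0.35 ± 0.089 SE, adjusted p = 0.00258 in edgeR). The groups did not overlap in either genotype, though the WT call was lost without WT replicate 2 at 48 h (adjusted p = 0.0767) or without WT replicate 3 at 48 h (adjusted p = 0.055 in edgeR).
Dlst, the E2 component that carries the lipoyl arm, rose instead. In WT it stood at 139.7, 141 and 142 CPM at 0 h and at 200.4, 186 and 205 CPM at 48 h, a 1.4-fold rise (log2 0.48 ± 0.084 SE, adjusted p = 0.000105 in edgeR). In cKO it went from 139, 131 and 132 CPM to 201, 158 and 163 CPM (log2 0.38 ± 0.084 SE, adjusted p = 0.00104 in edgeR). At 48 h the library labelled cKO replicate 1 lay among the WT libraries and the others lay below them.

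Of the enzymes of the last steps, Fh1 had the largest fold change of the 9 genes in both genotypes. It stood at 40.2, 44.4 and 41.8 CPM in WT at 0 h and at 109, 98.0 and 104 CPM at 48 h, a 2.46-fold rise (log2 1.30 ± 0.081 SE, adjusted p = 1.81e-09 in edgeR). In cKO it went from 36.4, 42.8 and 42.1 CPM to 97.4, 87.4 and 88.5 CPM, a 2.25-fold rise (log2 1.17 ± 0.081 SE, adjusted p = 7.06e-09 in edgeR). No library at 48 h was within reach of the levels at 0 h.
Mdh2 stood at 199, 182 and 198 CPM in WT at 0 h and at 355, 325 and 359 CPM at 48 h, a 1.79-fold rise (log2 0.84 ± 0.09 SE, adjusted p = 6.63e-07 in edgeR). In cKO it went from 186, 188 and 205 CPM to 341, 261 and 292 CPM (log2 0.63 ± 0.089 SE, adjusted p = 1.72e-05 in edgeR). Its libraries at 48 h were more spread in cKO than in WT, with the library labelled cKO replicate 1 highest.

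In cKO, 5 of the 9 genes rose and 3 fell from 0 h to 48 h, where 72.6 percent of all tested genes were called, 36.4 percent as higher and 36.2 percent as lower. The median log2 fold change was 0.38 for the 9 genes and -0.02 for all tested genes. Without both libraries labelled cKO replicate 1 the counts were again 5 and 3, with 66.4 percent of genes called, and the median of the 9 genes was lower, at 0.28. The 9 genes together took 0.109 ± 0.00175 percent of all counts in WT at 0 h (SD, n = 3) and 0.164 ± 0.00489 percent at 48 h. In cKO these shares were 0.111 ± 0.00148 and 0.149 ± 0.0129 percent. At 48 h the library labelled cKO replicate 1 had a share of 0.164 percent and replicates 2 and 3 had 0.139 and 0.144 percent. Markers of other cell types moved over the same time. The 8 B cell markers, all of which fell in WT, summed to 107 to 185 CPM in WT at 0 h and to 17.3 to 26.0 CPM at 48 h (88.3 to 106 and 21.1 to 21.5 CPM in cKO). The 10 myeloid markers, 8 of which fell in each genotype, summed to 38.8 to 50.6 CPM and 3.22 to 4.78 CPM in WT (27.9 to 48.6 and 4.11 to 5.31 CPM in cKO). The 6 erythroid markers summed to at most 16.6 CPM in any library at 0 h and to at most 0.498 CPM at 48 h. The part of these cells in the results was not tested.

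**Figure D2:**
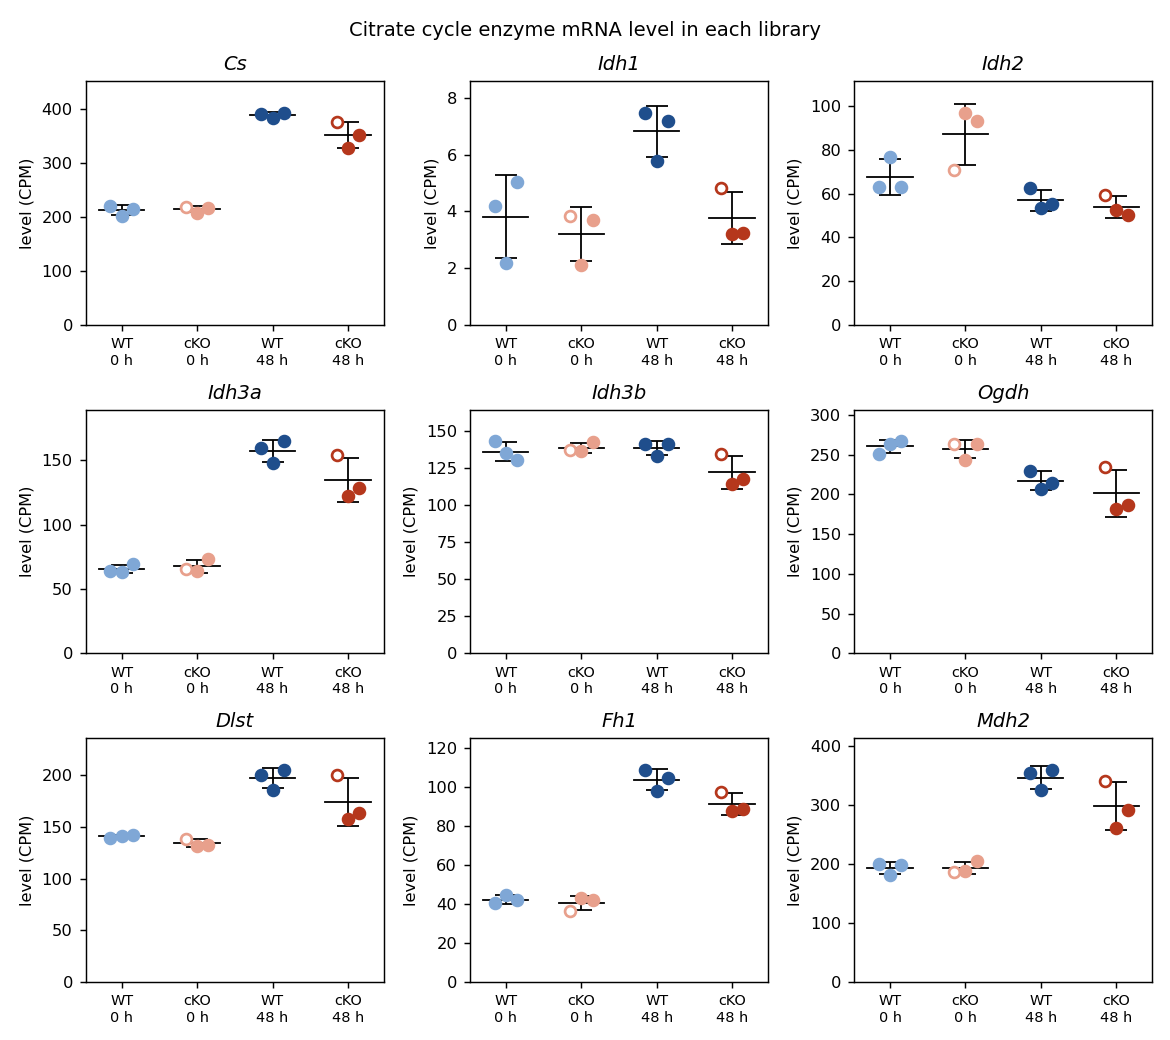
Level (CPM) of each of the 9 genes in every library, by genotype and time, with 1 point per library and the mean ± SD of 3 libraries. Open circles are the libraries labelled cKO replicate 1. Cs, Idh3a, Dlst, Fh1 and Mdh2 are higher in every library at 48 h than in any at 0 h, while Ogdh is lower within each genotype.

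Among the other 11 genes of the cycle, 9 were called higher in WT (median log2 fold change 0.32) and 7 in cKO (median 0.19), and 0 lower in either, where 36.9 and 36.4 percent of all tested genes were called higher. The count in cKO was 5 without both libraries labelled cKO replicate 1. The complex II subunit Sdhd rose most in WT (log2 1.25 ± 0.13 SE, adjusted p = 3.44e-07 in edgeR; 0.90 in cKO). Aco1, the cytosolic aconitase, which turns citrate into isocitrate, rose in both genotypes (log2 0.98 in WT, 0.74 in cKO). Dld, the E3 component shared by several dehydrogenase complexes, rose by 0.85 and 0.94 on the log2 scale, and the iron-sulfur subunit Sdhb by 0.82 in both genotypes.
Sucla2 (log2 0.76 in WT, 0.52 in cKO) and Suclg1 (0.32 and 0.19), subunits of succinyl-CoA ligase, and the cytosolic malate dehydrogenase Mdh1 (0.28 and 0.16) rose in both, though in cKO Suclg1 and Mdh1 were not called without both libraries labelled cKO replicate 1 (adjusted p = 0.293 and 0.131 in edgeR). Suclg2, a further ligase subunit, and the complex II anchor Sdhc rose in WT (0.27 and 0.26) and were not called in cKO (0.04 and 0.13). Idh3g, the remaining subunit of NAD-dependent isocitrate dehydrogenase, and Sdha, the flavoprotein of complex II, were not called in either genotype (Idh3g 0.03 and 0.09, Sdha 0.09 and -0.08).
The pathway column of the deposited table assigns 31 genes to the citrate cycle, of which 29 were tested and 9 are those described here. Of the 29, 22 rose and 1 fell in WT, and 20 rose and 3 fell in cKO. Of all tested genes, 75.4 percent were called in WT, 36.9 percent as higher and 38.4 percent as lower. In cKO 72.6 percent were called, 36.4 percent as higher and 36.2 percent as lower.

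**Figure D3:**
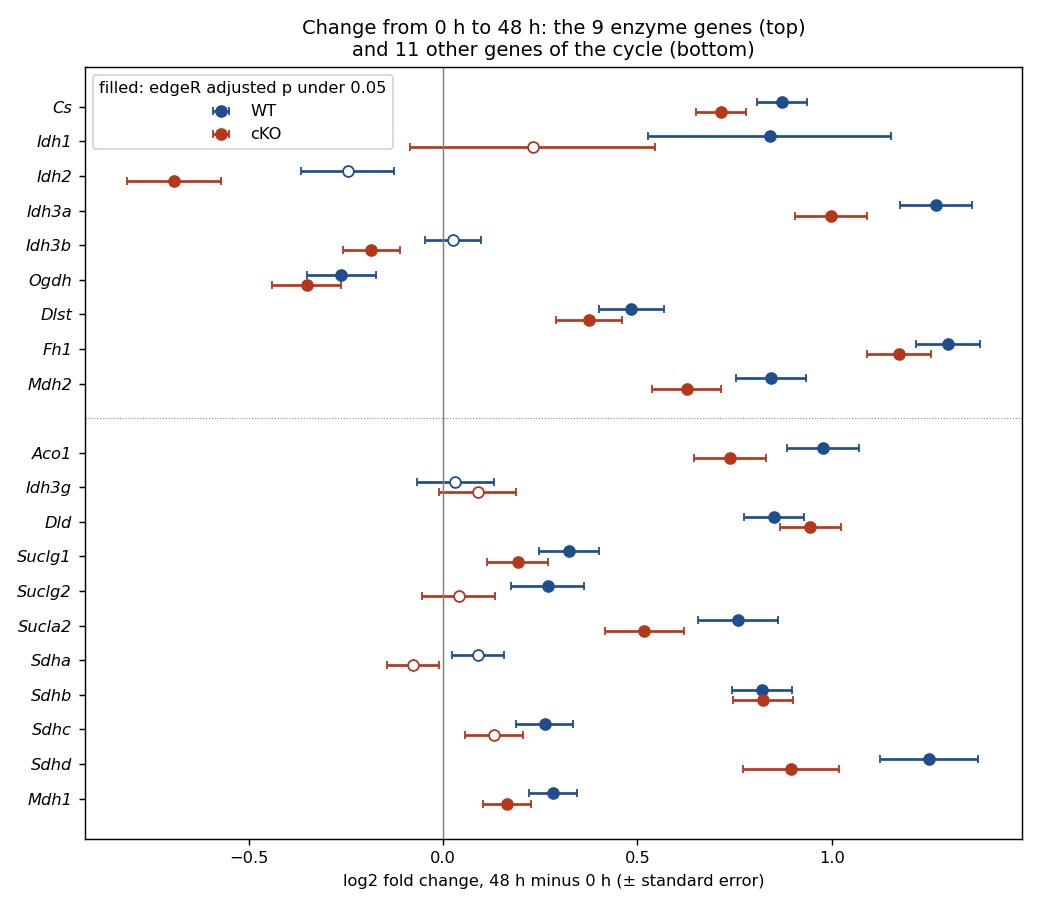
Log2 fold change from 0 h to 48 h (± SE, edgeR, n = 3 libraries per group) in WT and cKO for the 9 genes (top) and the 11 other genes of the cycle (bottom); filled points passed the test. Fh1, Idh3a and Sdhd lie furthest to the right in WT, and Idh2 and Ogdh to the left of 0.

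Because partner subunits and isoenzymes moved unequally, 5 ratios of levels per kilobase were computed within each library. The ratios were chosen after the values had been seen. The exon lengths set the size of a ratio, but they are the same in every library and leave its log2 differences unchanged. In an exact two-sided permutation test of 3 against 3 libraries the smallest possible p is 0.1, so none of the 20 comparisons made could pass 0.05. Idh3a to Idh3b was 0.303, 0.314 and 0.358 in WT at 0 h and 0.764, 0.749 and 0.787 at 48 h (log2 difference 1.24, exact permutation p = 0.1, 0.182 adjusted over the 20). In cKO the ratio was 0.325, 0.314 and 0.348 at 0 h and 0.776, 0.723 and 0.738 at 48 h (log2 difference 1.18). For this ratio, libraries of the same time lay close together, those labelled cKO replicate 1 included. Idh3a to Idh3g had a geometric mean of 0.34 at 0 h and 0.802 at 48 h in WT and of 0.358 at 0 h in cKO. At 48 h it was 0.828 in the library labelled cKO replicate 1, above all WT libraries, and 0.565 and 0.634 in replicates 2 and 3, below all of them.
Dlst to Ogdh was 0.317, 0.306 and 0.304 in WT at 0 h and 0.497, 0.512 and 0.548 at 48 h. In cKO it was 0.3, 0.308 and 0.287 at 0 h and 0.488, 0.494 and 0.499 at 48 h. The log2 differences were 0.75 and 0.73. Idh2 to Idh3a stood at 1.93, 2.4 and 1.78 in WT at 0 h, 2.11, 2.98 and 2.49 in cKO at 0 h, 0.767, 0.705 and 0.656 in WT at 48 h, and 0.753, 0.84 and 0.762 in cKO at 48 h. More Idh2 than Idh3a was thus measured per kilobase in every library at 0 h, and less in every library at 48 h. Which gene is ahead depends on the exon lengths used. Idh1 to Idh2 had geometric means of 0.0499 and 0.111 in WT and 0.0336 and 0.0642 in cKO. All 5 ratios separated the times in both genotypes without overlap, each with an exact permutation p of 0.1, the smallest possible. They were chosen after the values had been seen, so this separation is only a description. How often other pairs of genes separate the times was not counted.

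**Figure D4:**
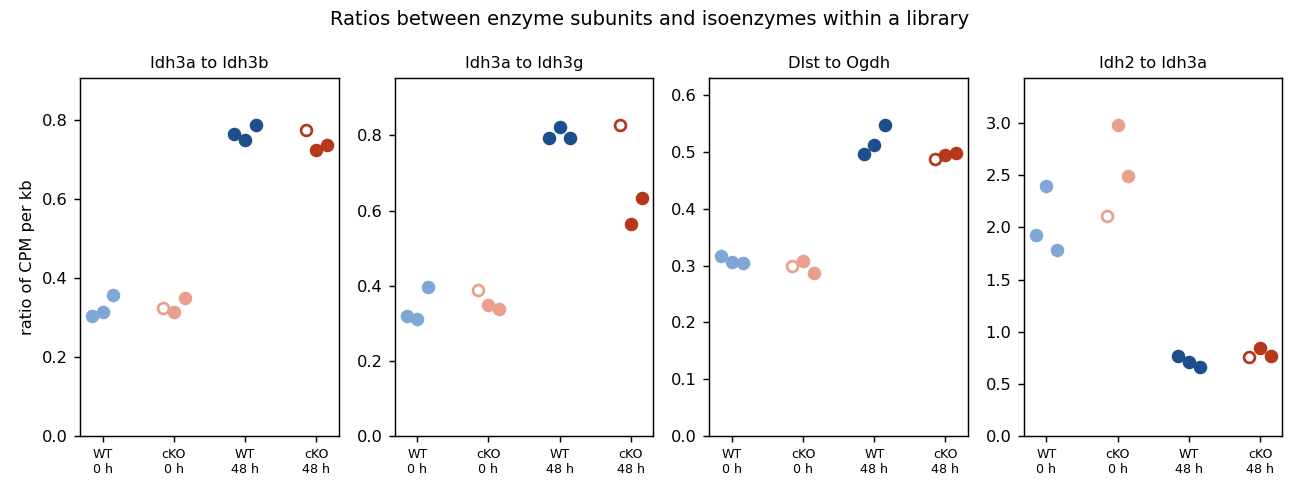
Ratio of CPM per kb of exon between partner subunits (Idh3a to Idh3b, Idh3a to Idh3g, Dlst to Ogdh) and between isoenzymes (Idh2 to Idh3a) in each library, 1 point per library, by genotype and time. Open circles are the libraries labelled cKO replicate 1. The first 3 ratios are higher, and the last lower, in every library at 48 h than in any at 0 h.

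Genes that feed or drain the cycle were counted in the same comparison, against 75.4 percent (WT) and 72.6 percent (cKO) of all tested genes called in either direction. Of 13 tested genes of pyruvate entry, 7 rose and 2 fell in each genotype, a share no larger than that background. Pdk2, a kinase that inhibits pyruvate dehydrogenase, went from a mean of 11.9 to 2.12 CPM in WT (log2 -2.49 ± 0.19 SE, adjusted p = 1.34e-08 in edgeR). Its relative Pdk3 rose (log2 1.10 ± 0.09 SE), as did the pyruvate dehydrogenase components Dlat and Pdhx (1.05 and 1.06).
Of 12 tested genes of anaplerosis and glutamine use, 11 rose and 1 fell in each genotype, and the median log2 fold change was 1.63 (WT) or 1.79 (cKO). In cKO, 10 rose without both libraries labelled cKO replicate 1. Psat1, which makes 2-oxoglutarate as a by-product of serine synthesis, rose from a mean of 30.1 to 385 CPM in WT (log2 3.68 ± 0.17 SE, adjusted p = 6.07e-11 in edgeR). The aspartate transaminases Got1 and Got2 rose by 2.42 and 1.79, and the malic enzyme Me2 by 0.92, on the same scale. The gene that fell was Gpt (log2 -1.07 in WT), an alanine transaminase named here after its value was seen.
Of 6 genes of citrate export and shuttles, 4 rose and 1 fell in each genotype, and 3 rose in cKO without those libraries. The mitochondrial citrate carrier Slc25a1 rose by 1.99 ± 0.12 SE on the log2 scale in WT and by 1.32 ± 0.12 SE in cKO, and Acly, which cleaves exported citrate to acetyl-CoA, by 1.00 and 0.62. Slc25a13, an aspartate-glutamate carrier, rose by 3.37 in WT, and the 2-oxoglutarate carrier Slc25a11 fell by 0.50. Of 15 genes of lipoylation and complex assembly, 7 rose and 1 fell in each genotype, fewer than the share of all genes called, and 5 rose in cKO without the libraries labelled cKO replicate 1. The named genes were Lias, the lipoyl synthase, at log2 0.72, and the complex II assembly factor Sdhaf4 at -1.22 in WT. Of 3 tested genes of 2-hydroxyglutarate and itaconate, D2hgdh, which oxidises the D form of 2-hydroxyglutarate, fell in WT (log2 -1.76). Acod1, the itaconate synthase, was called higher at a mean of 0.523 CPM at 48 h.

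Between genotypes at 0 h, edgeR called 0 of the 9 genes, against 0.00806 percent of all tested genes. DESeq2 (0.265 percent of its genes called) and limma-voom (0 percent) called 0 of the 9 as well, and 1 of the 9, Idh2, had an unadjusted p under 0.05, as did 9.38 percent of all genes. Idh2 was higher in cKO by 0.37 on the log2 scale (SE 0.12, adjusted p = 0.418 in edgeR). The library labelled cKO replicate 1 overlapped the WT libraries, at 71.0 CPM, while replicates 2 and 3, at 97.0 and 93.4 CPM, lay above all 3. Without both libraries labelled cKO replicate 1 the difference was 0.49 ± 0.099 SE (adjusted p = 0.0959 in edgeR), and 0 of the 9 genes were called, against 0.15 percent of all genes. Erythroid markers moved with Idh2 at 0 h. Their sum over 6 genes was 0.204, 10.7 and 0.989 CPM in the WT libraries. It was 6.16, 16.6 and 7.68 CPM in those labelled cKO, and the libraries with more of them, WT replicate 2 and cKO replicates 2 and 3, were also those with most Idh2. Their median log2 difference between genotypes was 1.54, with 0 of 6 called. The 8 B cell and 4 CD4 T cell markers had median differences of -0.69 and -0.71, with 0 called. The part of these markers' cells in the values of Idh2 was not tested. Dlst was the only gene of the 9 whose groups did not overlap, with every cKO library lower, a pattern that 7.35 percent of all genes showed, but by 0.07 on the log2 scale (log2 fold change -0.07 ± 0.084 SE, adjusted p = 0.826 in edgeR).
The remaining differences ran from -0.25 for Idh1 to 0.05 for Idh3a. For Cs the 95 percent interval was -0.12 to 0.15, for Mdh2 -0.19 to 0.19, and for Idh1, the gene with the fewest counts, -0.93 to 0.43. Among the other 11 genes of the cycle, 0 were called by edgeR, DESeq2 or limma-voom, and 1 had an unadjusted p under 0.05. The fit without both libraries labelled cKO replicate 1 also called 0 of the 11.

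At 48 h, with the libraries as labelled, edgeR again called 0 of the 9 genes between genotypes, where 4.18 percent of all tested genes were called (1.09 percent as lower in cKO and 3.1 percent as higher). All 9 log2 fold changes were negative, with a median of -0.18 beside 0.00 for all tested genes, and 7 of the 9 had an unadjusted p under 0.05, as did 22.2 percent of all genes. DESeq2, which called 9.35 percent of its genes, and limma-voom, with 5.33 percent, called 0 of the 9 too. Cs, Idh1 and Fh1 were lower in every cKO library than in any WT library, a pattern shown by 11 percent of all genes. Cs differed by -0.15 ± 0.064 SE (adjusted p = 0.195), Idh1 by -0.86 ± 0.31 SE (adjusted p = 0.128) and Fh1 by -0.19 ± 0.08 SE (adjusted p = 0.188 in edgeR) on the log2 scale. The log2 differences were -0.22 for Idh3a and Mdh2 (adjusted p = 0.172 and 0.171), -0.18 for Idh3b and Dlst (0.159 and 0.22), -0.11 for Ogdh (0.504) and -0.08 for Idh2 (0.745 in edgeR).

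The cKO libraries fell into a pattern that was shared by the 9 genes. Set against the WT mean at 48 h, replicates 2 and 3 were both below all WT libraries for 9 of the 9 genes, as they were for 26.5 percent of all tested genes, with medians over the genes of 82.3 and 84.9 percent. The library labelled cKO replicate 1 was below all WT libraries for 3 of the 9, within their range for 5 and above it for 1 (Ogdh), with a median of 98.0 percent. Idh1 stood at 70.8, 47.1 and 47.6 percent of the WT mean in the libraries labelled cKO replicates 1, 2 and 3. Mdh2 stood at 98.4, 75.4 and 84.2 percent, Idh3a at 98.0, 77.6 and 81.6 percent, and Cs at 96.4, 84.4 and 90.3 percent. The genes move together within a library and share its depth and scaling, so they are not independent measurements of the genotype. The other 11 genes of the cycle were less uniform, with 8 below all WT libraries and the remaining 3 within or above their range in each of replicates 2 and 3.

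**Figure D5:**
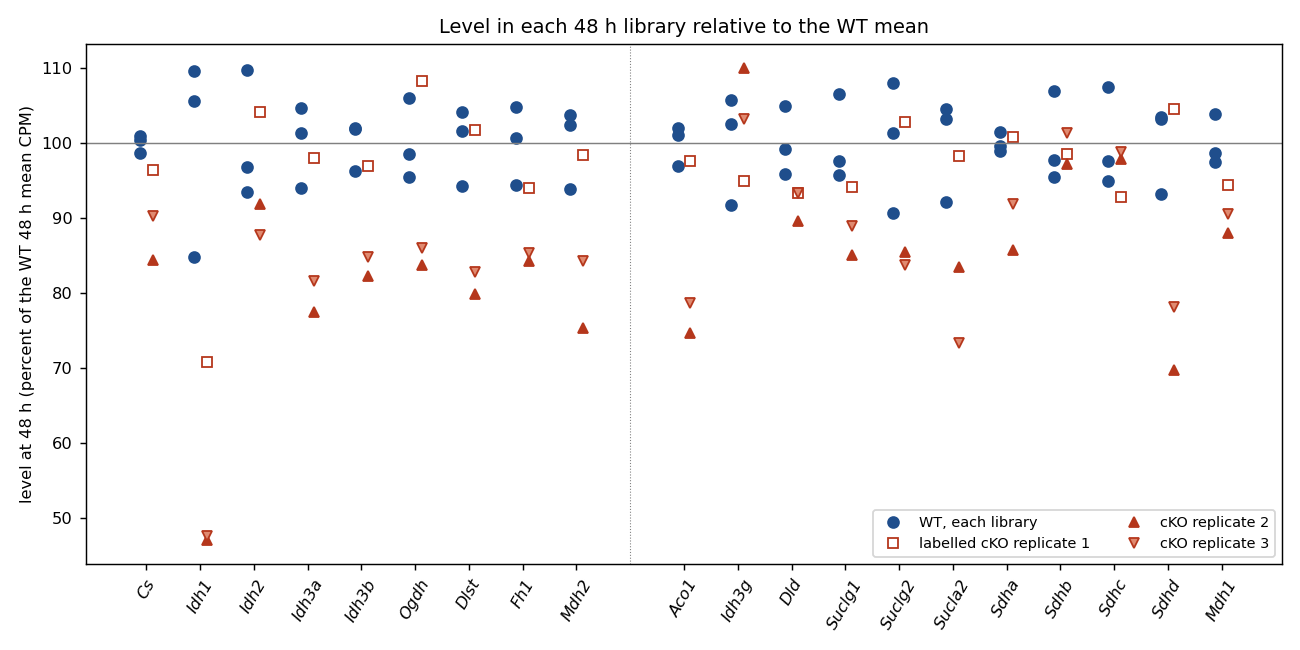
Level in each 48 h library as a percentage of the WT 48 h mean, for the 9 genes (left of the dotted line) and the 11 other genes of the cycle (right). Circles are WT libraries, open squares the library labelled cKO replicate 1 and triangles cKO replicates 2 and 3, which lie below all WT circles for the 9 genes.

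Without both libraries labelled cKO replicate 1, which leaves 2 cKO libraries at each time, 7 of the 9 genes were lower in cKO at 48 h, where 17.7 percent of all tested genes were called and 8.78 percent were lower. The median log2 fold change of the 9 was -0.26. Dlst fell by 0.30 on the log2 scale (SE 0.067, adjusted p = 0.00976 in edgeR), Mdh2 by 0.33 (SE 0.079, adjusted p = 0.0135) and Idh3a by 0.33 (SE 0.084, adjusted p = 0.0173). Idh3b fell by 0.26 (adjusted p = 0.0239), Ogdh by 0.24 (adjusted p = 0.0347), Fh1 by 0.24 (adjusted p = 0.0436) and Idh1 by 1.08 (SE 0.34, adjusted p = 0.045 in edgeR). Cs, at -0.20 ± 0.065 SE (adjusted p = 0.0522), and Idh2, at -0.15 ± 0.10 SE (adjusted p = 0.321 in edgeR), were not called. Leaving out that library at 48 h alone gave 6 calls, and leaving out any other single library gave 0. The calls at 48 h thus rest on whether that library is counted as cKO.
At 48 h the summed markers of CD8 T cells did not overlap between genotypes, with the 5 genes at 1449.8 to 1469 CPM (WT) or 1482 to 1563 CPM (cKO). The 10 myeloid markers stood at 3.22 to 4.78 or 4.11 to 5.31 CPM. The 4 NK markers summed to 110.1 to 118 CPM in the WT libraries, to 65.3 and 76.9 CPM in cKO replicates 2 and 3 and to 113 CPM in the other cKO library, nearly all of it Eomes, which CD8 T cells also express. Ncr1 and Klrb1c, which define NK cells, were at or near 0 at 48 h. The 4 CD4 T cell markers were at 32.2 to 41.5 CPM (WT) or 34.3 to 56.4 CPM (cKO). As labelled, 0 of these markers were called. Without both libraries labelled cKO replicate 1, the CD8 list had Cd3d higher (log2 0.21), the CD4 list Foxp3 and Zbtb7b higher (1.18 each), and the NK list Klrb1f higher (1.97) and Eomes lower (-0.70) in cKO, named here after their values were seen. Klrb1f rested on few counts at 48 h, 15, 8 and 5 in the WT libraries and 36 and 38 in cKO replicates 2 and 3. The part of these markers' cells in the result was not tested.

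Calls of neighbouring genes also depended on that library. As labelled, 1 gene of the lists was called at 48 h, the citrate carrier Slc25a1, at 70.3, 61.0 and 71.3 CPM in the WT libraries and at 53.4, 43.1 and 47.0 CPM in those labelled cKO (log2 -0.50 ± 0.11 SE, adjusted p = 0.0279 in edgeR). Without both libraries labelled cKO replicate 1, 17.7 percent of all tested genes were called, 8.78 percent as lower. In that fit 3 of the other 11 genes of the cycle were lower: Sdhd (log2 -0.44 ± 0.086 SE, adjusted p = 0.00521), Aco1 (-0.38 ± 0.075 SE, 0.00493) and Sucla2 (-0.35 ± 0.095 SE, 0.0236 in edgeR). In citrate export, Acly (log2 -0.46, adjusted p = 0.00368), Slc25a1 (-0.59, 0.0057) and the dicarboxylate carrier Slc25a10 (-0.65, 0.0129 in edgeR) were lower, 3 of 6.
In anaplerosis 4 of 12 genes were instead higher and 1 was lower in that fit, where 17.7 percent of all tested genes were called. Pck2, the mitochondrial PEP carboxykinase, at 48 h stood at 39.1, 58.1 and 53.4 CPM in the WT libraries and at 21.9, 135 and 147 CPM in those labelled cKO, with the library labelled cKO replicate 1 below all WT libraries. Without that label's libraries its log2 difference was 1.49 ± 0.15 SE (adjusted p = 0.000141 in edgeR). The alanine transaminase Gpt2 (log2 1.51), the glutamine transporter Slc1a5 (0.46) and Psat1 (0.44) were also higher. Got2 was lower (log2 -0.38) and is named after its value was seen. Of the 13 genes of pyruvate entry, 1 was higher, Pdk2 (log2 0.70), and 1 lower, the pyruvate dehydrogenase phosphatase Pdp2 (-0.74). Of the 15 lipoylation and assembly genes 2 were lower, Glrx5 (-0.64), a glutaredoxin of iron-sulfur cluster assembly, and Mrps36 (-0.39). For pyruvate entry and for lipoylation and assembly, the share called was below that of all tested genes. Of the 2-hydroxyglutarate genes 1 of 3 was higher, D2hgdh (0.56).

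The interaction asks whether the change from 0 h to 48 h differed between genotypes. As labelled, edgeR called 0 of the 9 genes, against 0.113 percent of all tested genes, and DESeq2 (4.1 percent of genes) and limma-voom (0.153 percent) called 0 as well. All 9 differences were negative, with a median of -0.21 on the log2 scale beside 0.01 for all genes. Idh2 was the only one with an unadjusted p under 0.05, as 16.7 percent of all genes had (log2 -0.45 ± 0.17 SE, adjusted p = 0.212 in edgeR). Without both libraries labelled cKO replicate 1, Idh2 was called, 1 of the 9, where 6.87 percent of all genes were (log2 -0.65 ± 0.14 SE, adjusted p = 0.0223 in edgeR). That call draws on the Idh2 levels at 0 h, where erythroid markers summed to 16.6 and 7.68 CPM in cKO replicates 2 and 3 and to 0.204 to 10.7 CPM in WT, while every library at 48 h held at most 0.498 CPM of them. Their part in the call was not tested. Idh3a, Mdh2 and Idh3b had adjusted p = 0.0612, 0.0735 and 0.0879 there. The rise of Idh1 that was called in WT and not in cKO was not shown to differ between them (log2 -0.61 ± 0.44 SE, adjusted p = 0.519 in edgeR), nor was the fall of Idh3b that was called in cKO and not in WT (log2 -0.21 ± 0.10 SE, adjusted p = 0.324).

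For each of the 9 genes, the other gene of at least 5 CPM with the most similar profile over the 12 libraries was found by the root mean square difference of log2 levels, each centred on its own mean. This is a description, and the 12 libraries share genotype and time. Dlst had the closest match, Tsn at 0.0338, followed by Cs with Sec61a1 at 0.0388. The nearest gene was Rab5if for Mdh2 (0.0481), Psmc4 for Idh3a (0.0507), Psmb1 for Idh3b (0.0514), Psma7 for Fh1 (0.0588) and Gnb2 for Ogdh (0.0589). Idh2 and Idh1 had looser matches, Wdr7 at 0.129 and Hspa8 at 0.3. The median over all genes compared ran from 0.384 for Idh3b to 0.708 for Fh1.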

How the data were processed

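The authors deposited unnormalized read counts for 16352 genes; all 12 columns were matched to labels. The submitters' processing notes name HTSeq 0.11.2, HISAT2 2.1.0 and the build GRCm39, beside fastp 0.20.1, SAMtools 1.9 and FastQC 0.11.9; the strand setting is not given in the sources used here. Libraries came from total RNA and a NEBNext Ultra kit, per the labels' protocols.

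The test was edgeR 4.0.16 under R 4.3.3: filterByExpr (minimum count 10, minimum total 15) kept 12404 genes, TMM factors scaled the libraries, and 1 quasi-likelihood model was fitted to the 4 groups (8 residual degrees of freedom). Genes with an adjusted two-sided p under 0.05 were called, with no minimum fold. The SE of a log2 fold change is its size over the root of F. The script was tested on simulated data in which every library was drawn from its labelled group. That test does not cover a library whose readout goes against its label.

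The 9 genes, the lists and the alternatives were chosen with earlier results of these data known. From each list the text names up to 4 called genes of smallest adjusted p, and all of the 11 other cycle genes; 2 further genes of the lists are not reported here. For likeness the rule takes 3 genes per member, of which the nearest is named. Alternatives were RLE and upper-quartile scaling, no filter, DESeq2 1.42.0, a minimum mean of 1 CPM, voom of limma 3.58.1, a fit of only the groups compared, a replicate block, and fits without each library or without both libraries labelled cKO replicate 1 or of WT replicate 3. None of the 9 genes had another gene with over 90 percent identity over 200 bases in GENCODE M21 transcripts (BLAST 2.17.0). Coordinates are those of RefSeq promoters on GRCm38.p6, which is not the build of the counts.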

Additional observations from a re-analysis of the deposited data

How the results depend on the processing

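Of the values of the 9 genes recomputed under the alternatives, 943 were counted as unchanged, 18 gained a call, 19 lost one and 1 changed sign by more than its SE. Unchanged values stayed on the same side of the threshold. Where not called, they could change sign if they moved by no more than the SE of the main fit. The larger change of sign was that of Idh3b from 0 h to 48 h in WT, at -0.079 under upper-quartile scaling (adjusted p = 0.299 in edgeR). The number of the 9 genes called between genotypes at 48 h went from 0 to 6 when the 48 h library labelled cKO replicate 1 was left out and to 7 without both libraries so labelled, and in the interaction from 0 to 1 without both. Leaving out single libraries gave 0 to 6 calls at 48 h, 0 to 0 at 0 h, 5 to 8 from 0 h to 48 h in WT, 7 to 8 in cKO and 0 to 0 in the interaction. Over all genes, the same fits called 8901 to 9606 from 0 h to 48 h in WT and 8595 to 9069 in cKO. Idh2 from 0 h to 48 h in WT became called under upper-quartile scaling (-0.35, adjusted p = 0.0131), with only the groups compared (0.0393) and without both libraries labelled cKO replicate 1 (0.0231). Ogdh in WT was not called without both libraries of WT replicate 3 (adjusted p = 0.114).

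Over all genes, the 1 call at 0 h became 6 without a filter, 40 with DESeq2, 0 with limma-voom, 0 with only the groups compared, 19 without both libraries labelled cKO replicate 1, 0 without both of WT replicate 3, and 0 to 8 without single libraries. At 48 h the 519 calls became 1054, 138, 2243 and 16 with DESeq2, with only the groups compared, and without both libraries labelled cKO replicate 1 or of WT replicate 3, and 53 to 2260 without single libraries. The split at 48 h was 384 higher and 135 lower as labelled, and 1133 and 1110 without both libraries labelled cKO replicate 1. The 14 calls of the interaction became 122 without a filter, 449 with DESeq2, 868 and 0 without those pairs of libraries, and 0 to 967 without single libraries. The cause of these changes was not tested.

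With the replicate number as a block, 0, 0, 7, 8 and 0 of the 9 genes were called in the 5 comparisons, as without it. Without the block, 75.4 percent (WT) and 72.6 percent (cKO) of all tested genes were called from 0 h to 48 h. With it, 5 in place of 7 of the 11 other cycle genes were called higher from 0 h to 48 h in cKO, and 37 genes were called in the interaction. No label says that a number pairs libraries. Between the times, deviations of libraries with the same number correlated at 0.07 to 0.15 in WT and 0.03 to 0.06 in cKO, each highest for its own number. Correlations between genotypes at the same time were as large. They ran from -0.18 (WT replicate 2 with cKO replicate 1 at 48 h) to 0.16 (WT replicate 3 with cKO replicate 1 at 0 h). The size of these correlations therefore does not mark a shared source. The lack of Uty, Kdm5d and Eif2s3y counts in WT replicate 3 and the WT-level Trmt61a in cKO replicate 1 also recurred at both times. The recurring names and counts are hints that equal numbers within a genotype share a source. Depth limits Idh1, with 73 to 293 counts a library.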
